A study of Mus musculus with 16 samples.

Results

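Krüppel-like factors (KLF) are zinc finger transcription factors, and 10 of their genes (Klf2, Klf3, Klf4, Klf5, Klf6, Klf9, Klf10, Klf11, Klf13 and Klf15) were followed here in brown adipocytes in which lipolysis was switched on. They were taken by symbol from a count table of 20295 genes, and all 10 passed the filter on low counts that 12786 genes passed. The cells were BAT-LgT cells, wild-type mouse brown preadipocytes of a single line that SV40 large T antigen had made immortal, differentiated in culture and used on day 7. RNA-seq was done on 16 samples in 6 groups, which asked whether the response to lipolysis needs fatty acids to be activated or oxidised. Lipolysis was triggered for 3 h with SR-3420 (SR), a ligand of ABHD5, the protein that turns on the lipase ATGL. Its dose was 10 µM in the sample labels, and the text of the study gives a different dose. Triacsin C (TC, 5 µM), which blocks the long-chain acyl-CoA synthetases that activate fatty acids, or etomoxir (ETO, 50 µM), which blocks carnitine palmitoyltransferase in the entry of fatty acids into mitochondria, was given 1 h before. There were 2 samples of vehicle (replicates 2 and 3), 2 of SR alone (replicates 1 and 3), and 3 each of TC, TC+SR, ETO and ETO+SR (replicates 1 to 3). The study's methods describe replicates as independent experiments, all in the same cell line.

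KLF proteins bind GC-rich and CACCC-type DNA through zinc fingers at their carboxyl end, and they differ in the partners that their other end recruits. Klf2, Klf4, Klf5 and Klf6 belong to a group that can recruit histone acetyltransferases, Klf9, Klf10, Klf11 and Klf13 to a group that recruits the SIN3A corepressor, and Klf3 to a group that recruits the CTBP corepressors, while Klf15 stands apart from these. In fat cells, Klf4 and Klf5 are known to act early in differentiation, upstream of Cebpb and Pparg, Klf2 and Klf3 to hold it back, and Klf15 to drive glucose transporter and amino acid catabolism genes, and several members are also immediate early genes that respond quickly to stress and growth signals.

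The deposited counts of a sample added up to 9452861 at the lowest and 25670624 at the highest (median 13602886), and the lowest count of any member in any sample was 60, for Klf5. Values are given as CPM, counts scaled to the TMM-normalized size of each library, or, where genes are compared with each other, as RPKM, the same value per kilobase of counted length. Log2 fold changes (log2FC) are given with their SE, and pAdj is the p-value of edgeR's quasi-likelihood test after Benjamini-Hochberg adjustment over the 12786 genes tested, called at 0.05. SR on TC stands for TC+SR against TC, SR on ETO for ETO+SR against ETO, and SR alone for SR against vehicle. Markers of mature adipocytes were high in vehicle, where the 6 genes of the list summed to 15800 and 13900 CPM, with Fabp4 the most abundant of them. Of the brown adipocyte list, summing to 225 and 171 CPM in vehicle, Cox8b was the most abundant gene. Ucp1, the uncoupling protein that defines heat-producing brown fat, had a mean of 2.16 CPM over the 16 samples, and the deiodinase gene Dio2 had 6 counts in all of them together.

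The promoters of the members whose levels moved most are shown because Klf2, Klf4 and Klf6 rose with SR in groups in which Klf15 fell or had lower values. RefSeq promoter sequences on GRCm38.p6 were found for 8 of the 10 members, with no entry for Klf5 and Klf10. The 250 bases before the start are printed 5′ to 3′ on the gene's strand, from chr8:72318812-72319061 (plus strand) for Klf2, chr4:55532476-55532725 (minus strand) for Klf4, chr13:5861239-5861488 (plus strand) for Klf6 and chr6:90462326-90462575 (plus strand) for Klf15. Capitals mark the E-box CACGTG, which MYC and circadian factors bind, the EGR motif GCGGGGGCG and the MEF2 motif, each searched on both strands.
Klf2: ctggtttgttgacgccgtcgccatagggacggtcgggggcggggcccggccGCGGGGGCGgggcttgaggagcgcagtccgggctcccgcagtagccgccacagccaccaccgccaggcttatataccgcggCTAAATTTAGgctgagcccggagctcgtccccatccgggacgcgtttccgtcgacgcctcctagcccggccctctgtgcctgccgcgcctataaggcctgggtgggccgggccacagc
Klf4: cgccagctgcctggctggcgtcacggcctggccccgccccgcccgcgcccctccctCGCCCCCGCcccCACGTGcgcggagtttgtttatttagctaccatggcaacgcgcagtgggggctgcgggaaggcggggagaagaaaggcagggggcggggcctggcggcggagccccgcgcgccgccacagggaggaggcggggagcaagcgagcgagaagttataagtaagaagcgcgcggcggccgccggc
Klf6: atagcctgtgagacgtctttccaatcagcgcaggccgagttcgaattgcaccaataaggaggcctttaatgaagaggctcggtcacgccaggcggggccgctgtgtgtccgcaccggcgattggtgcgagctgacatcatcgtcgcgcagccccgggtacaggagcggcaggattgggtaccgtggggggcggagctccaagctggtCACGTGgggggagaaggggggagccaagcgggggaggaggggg
Klf15: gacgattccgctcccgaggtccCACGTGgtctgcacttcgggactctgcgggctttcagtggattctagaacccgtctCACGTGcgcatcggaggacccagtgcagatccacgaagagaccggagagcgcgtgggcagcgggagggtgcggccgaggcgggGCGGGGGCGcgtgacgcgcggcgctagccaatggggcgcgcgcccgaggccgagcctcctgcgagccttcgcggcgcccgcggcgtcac
The E-box lay in the window of 4 of the 8 members (Klf4, Klf6, Klf11 and Klf15) and in 6.02% of all 32851 promoters over the same length, and Klf15 held 2 of them. The EGR letters lay in 4 members (Klf2, Klf3, Klf4 and Klf15) and in 2.57% of promoters. The MEF2 motif lay in Klf2 and in 1.69% of promoters. The GC box GGGCGG, the kind of element that KLF and SP factors themselves bind, lay in 7 members and in 32.7% of promoters, and all 5 EGR matches of the members shared letters with a GC box. Both motifs are made of G and C only. The windows printed for Klf2, Klf4, Klf6 and Klf15 were 71.2%, 74%, 64.8% and 72% G or C. The shares over all promoters were not matched for base content, so no trait of the members is read from them. The other motifs searched were the CCAAT box (CCAAT, 5 members, 33.8% of promoters), the CRE half-site (TGACG, 5 members, 17.8%), the AP-1 site (TGANTCA, 1 member, 6.75%) and the TATA box (TATAAA, 0 members, 12.4%).

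In vehicle the most abundant member per length was Klf15, with a mean of 44.5 RPKM (n = 2), followed by Klf9 with 32.5 RPKM and Klf3 with 29.6 RPKM. Klf6, Klf13 and Klf10 followed at 22.1, 20.3 and 19.9 RPKM with overlapping samples, and Klf4 and Klf11 overlapped too, at 8.05 and 7.46 RPKM. Klf5 was the lowest, at 4.00 RPKM. The order was different with SR: in TC+SR, Klf6 (66.7 RPKM) and Klf4 (58.7 RPKM) led with overlapping samples and Klf15 came last with 10.6 RPKM (n = 3). In ETO+SR, Klf6 led with 61.7 RPKM, and 8 of the 9 pairs of neighbours in the order overlapped, down to Klf15 with 13.2 RPKM. In TC alone Klf10 was the most abundant, with 45.2 RPKM, above all other members in each of the 3 samples. In ETO alone Klf15 (34.8 RPKM) and Klf9 (32.9 RPKM) led with overlapping samples, as Klf9 (39.4 RPKM) and Klf6 (34.4 RPKM) did in SR. Averaged over the 16 samples, levels per length ran from 11.9 RPKM for Klf11, at the 51.8th percentile of the genes tested, to 39.7 RPKM for Klf6, at the 82.2nd.

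**Figure D1:**
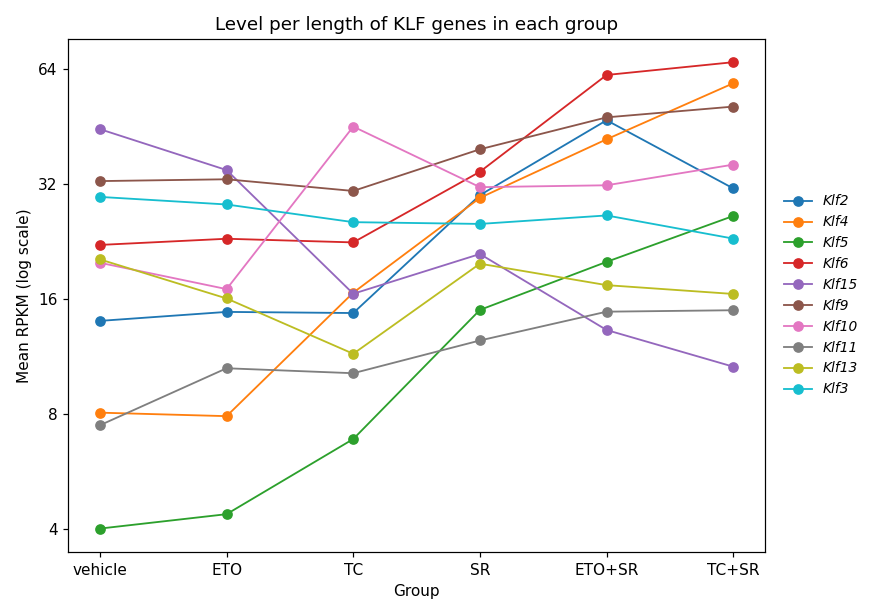
Mean level per length (RPKM, log scale, vertical axis) of each KLF gene in the 6 groups (horizontal axis, n = 2 for vehicle and SR and 3 for the others); lines only join the points of a gene. Klf15 goes from the highest place in vehicle (44.5 RPKM) to the lowest in TC+SR (10.6 RPKM), and Klf10 is highest in TC (45.2 RPKM).

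Among the 6 groups, 9 of the 10 members differed by the F-test of edgeR, all but Klf3, against 42.7% of all genes tested. SR raised 4 members and lowered none of the 10 in the absence of inhibitors (Klf2, Klf4, Klf5 and Klf11), where 7.54% of all genes were called (4.75% higher and 2.79% lower). In TC+SR against TC, 7 members rose and 0 fell, where 36.9% of all genes were called (17.3% higher and 19.7% lower). In ETO+SR against ETO, 7 rose and 1 fell, where 25.3% of all genes were called (12.5% higher and 12.8% lower). The median log2FC of the 10 members was 0.65, 0.64 and 0.72 in these comparisons, beside -0.0038, 0.019 and 0.0094 for all genes tested. For the 10 other KLF and SP genes tested, the medians were -0.0752, 0.465 and 0.0447. The members were chosen with earlier results of these data known, so their counts and medians are descriptions and no test of the family. These comparisons share no samples with each other.

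**Figure D2:**
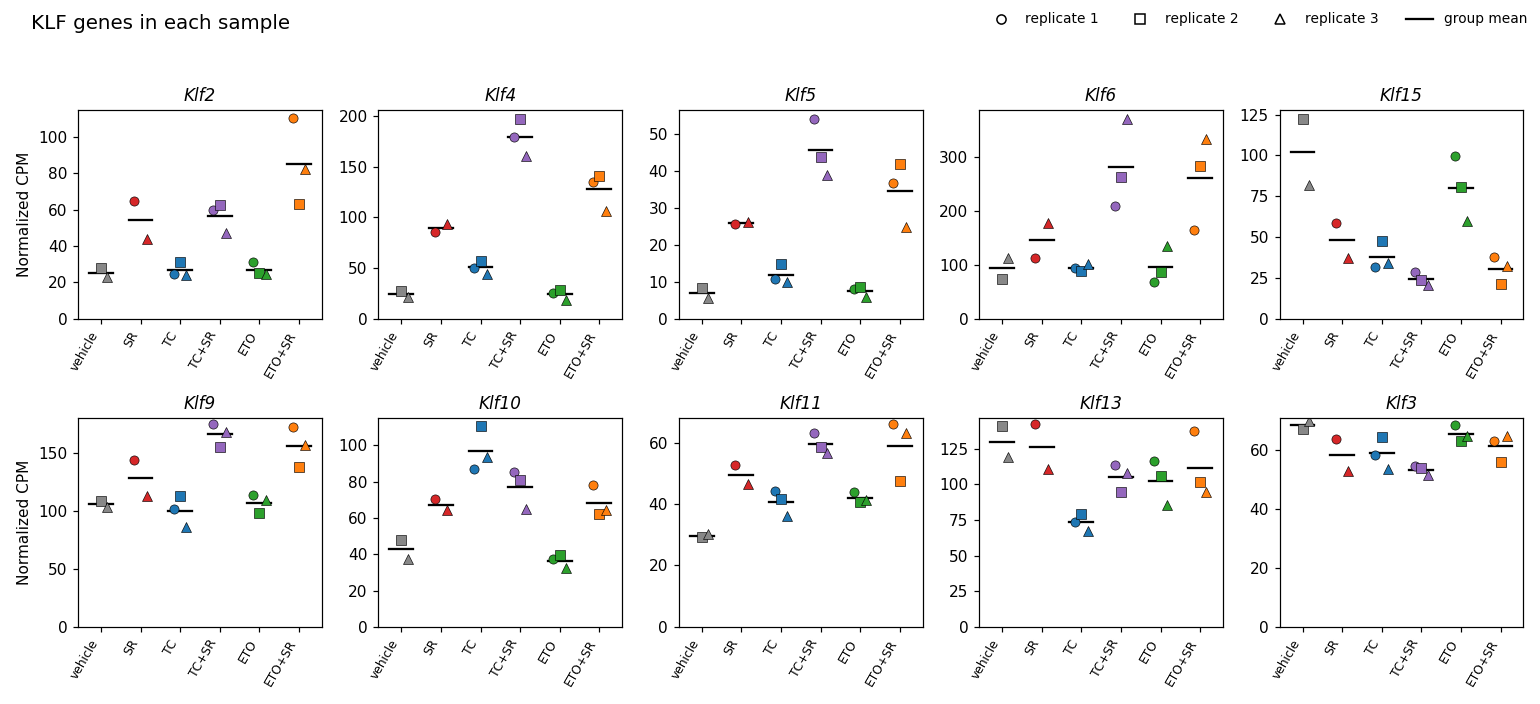
Normalized CPM (vertical axes, from 0) of the 10 KLF genes in each of the 16 samples, with groups on the horizontal axes, symbols for replicate numbers and black lines for group means. Klf4 is highest in TC+SR (160 to 196 CPM) and Klf15 is highest in vehicle (81.7 and 123 CPM).

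Klf4, a zinc finger activator best known from stem cell reprogramming and induced early in fat cell differentiation (mm9 chromosome 4, 55540009 to 55545347, minus strand), was at 27.4 and 21.6 CPM in vehicle and at 85.3 and 93.8 CPM in SR. It was at 50.2, 57.1 and 44.3 CPM in TC and at 180, 196 and 160 CPM in TC+SR. It was at 25.3, 27.9 and 18.8 CPM in ETO and at 135, 141 and 106 CPM in ETO+SR. Every sample with SR was above every sample without it, and the 6 group means ordered as TC+SR, ETO+SR, SR, TC, vehicle and ETO, of which only vehicle and ETO overlapped as neighbours. Klf4 rose by a log2FC of 1.87 ± 0.21 with SR alone (edgeR pAdj = 0.000233), 1.82 ± 0.17 on TC (edgeR pAdj = 9.74e-06) and 2.41 ± 0.18 on ETO (edgeR pAdj = 2.05e-06).

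Klf5, an activator that is induced early in adipogenesis and acts on Pparg (chromosome 14, 99697910 to 99712628, plus strand), was at 8.26 and 5.53 CPM in vehicle and at 25.6 and 26 CPM in SR. It was at 10.8, 14.8 and 9.94 CPM in TC and at 53.9, 43.7 and 38.9 CPM in TC+SR. It was at 8.16, 8.53 and 5.88 CPM in ETO and at 36.8, 41.8 and 24.9 CPM in ETO+SR. As for Klf4, all 8 samples with SR lay above all 8 samples without it. The log2FC was 1.90 ± 0.30 with SR alone (edgeR pAdj = 0.00196), 1.94 ± 0.24 on TC (edgeR pAdj = 5.44e-05) and 2.19 ± 0.24 on ETO (edgeR pAdj = 4.68e-05). When only the vehicle and SR samples were fitted, the first of these calls was lost (log2FC 1.87, edgeR pAdj = 0.0658). Klf4 and Klf5 followed each other closely, with a Pearson r of 0.986 over the 16 samples on the log2 CPM scale, which the contrast between samples with and without SR largely spans.

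Klf2, which holds back Pparg in preadipocytes and responds to flow and statins in endothelium (chromosome 8, 74842961 to 74845553, plus strand), was at 28.1 and 22.8 CPM in vehicle and at 65.0 and 43.6 CPM in SR. It was at 24.8, 31.2 and 23.9 CPM in TC and at 59.6, 62.7 and 47.4 CPM in TC+SR. It was at 31.1, 25.0 and 24.4 CPM in ETO and at 110, 63.2 and 82.4 CPM in ETO+SR. The groups without SR overlapped between 22.8 and 31.2 CPM, the SR and TC+SR groups overlapped, and ETO+SR lay above all TC+SR samples but overlapped SR alone at 63.2 and 65 CPM. Klf2 rose by 1.09 ± 0.27 with SR alone (edgeR pAdj = 0.0262), 1.08 ± 0.22 on TC (edgeR pAdj = 0.00185) and 1.67 ± 0.22 on ETO (edgeR pAdj = 0.000179), in log2FC. The call for SR alone was lost without SR replicate 1 (log2FC 0.78, edgeR pAdj = 0.228), vehicle replicate 2 (1.25, 0.0837) or vehicle replicate 3 (0.96, 0.188), and when only those groups were fitted (1.07, 0.19).

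Klf6, a wound-response factor that represses Dlk1 in preadipocytes (chromosome 13, 5860735 to 5869639, plus strand), was at 73.8 and 113 CPM in vehicle and at 112 and 178 CPM in SR. It was at 93.8, 88.4 and 102 CPM in TC and at 210, 262 and 371 CPM in TC+SR. It was at 68.2, 87.4 and 135 CPM in ETO and at 164, 283 and 334 CPM in ETO+SR. Vehicle and SR overlapped, whereas TC+SR and ETO+SR lay above TC and ETO, and in all 6 groups replicate 3 was the highest sample of its group. The log2FC was 0.64 ± 0.39 with SR alone (edgeR pAdj = 0.368), 1.57 ± 0.32 on TC (edgeR pAdj = 0.00191) and 1.43 ± 0.32 on ETO (edgeR pAdj = 0.00538). The difference between the response on TC and without inhibitor was 0.93 (95% confidence interval -0.14 to 2.00, edgeR pAdj = 0.369), so that a difference in response was not shown. Fitting only ETO and ETO+SR left the last of these calls just under the threshold (log2FC 1.39, edgeR pAdj = 0.05 after rounding). With the replicate number as a block, the rise of Klf6 with SR alone was called (edgeR pAdj = 0.0122).

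Klf15, which is rich in mature fat, liver and muscle and drives the glucose transporter gene Slc2a4 and the amino acid genes Bcat2 and Prodh (chromosome 6, 90412620 to 90425203, plus strand), was at 123 and 81.7 CPM in vehicle and at 58.7 and 37.5 CPM in SR. It was at 31.9, 47.6 and 34.0 CPM in TC and at 28.5, 23.9 and 20.6 CPM in TC+SR. It was at 99.4, 80.4 and 59.7 CPM in ETO and at 37.7, 21.3 and 32.1 CPM in ETO+SR. Vehicle and ETO held the highest values and overlapped, and each group with SR lay below its counterpart without SR. The fall passed the test on ETO, at a log2FC of -1.39 ± 0.27 (edgeR pAdj = 0.0025), and not with SR alone (-1.09 ± 0.33, edgeR pAdj = 0.0639) or on TC (-0.64 ± 0.27, edgeR pAdj = 0.0832). The responses were not shown to differ, with a difference of 0.76 between TC and ETO (95% confidence interval -0.067 to 1.58, edgeR pAdj = 0.47). DESeq2 called the fall with SR alone (log2FC -1.10, adjusted p = 0.0185), and a fit of TC and TC+SR only called it on TC (log2FC -0.63, edgeR pAdj = 0.03).

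**Figure D3:**
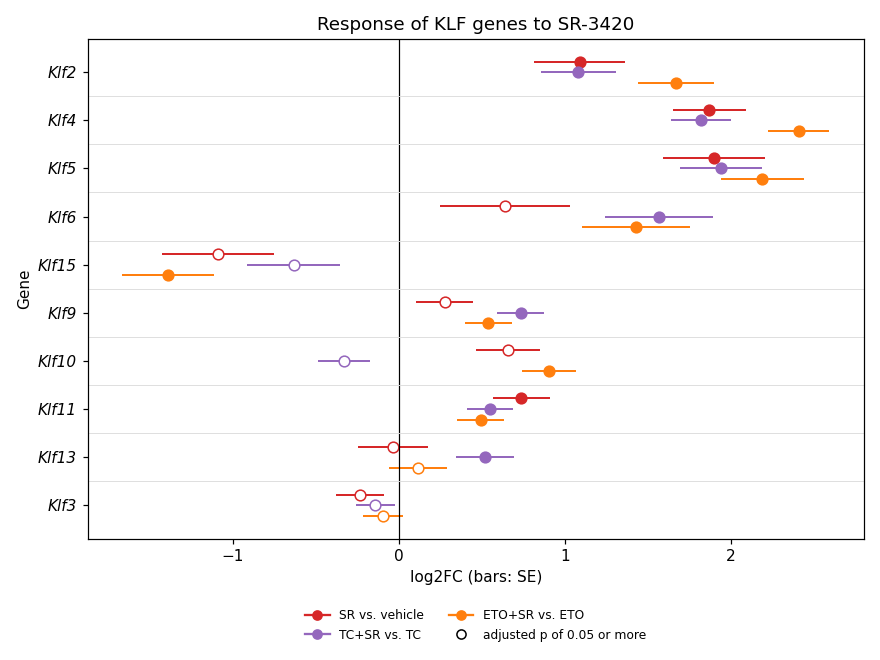
Log2FC (horizontal axis) of each KLF gene (vertical axis) for SR against vehicle, TC+SR against TC and ETO+SR against ETO, with bars for the SE and filled points where the adjusted p of edgeR was under 0.05. Klf4 and Klf5 are filled in all 3 comparisons and lie between 1.82 and 2.41, and Klf15 lies below 0 in each, filled only for ETO+SR against ETO.

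Of the members that recruit SIN3A, Klf9, a glucocorticoid-responsive gene, ranged from 86.0 to 114 CPM in the samples without SR and from 113 to 176 CPM in those with it. Its log2FC was 0.73 ± 0.14 on TC (edgeR pAdj = 0.000944) and 0.54 ± 0.14 on ETO (edgeR pAdj = 0.0103), and 0.28 ± 0.17 with SR alone (edgeR pAdj = 0.36). The call on ETO was lost without ETO replicate 2 (log2FC 0.48, edgeR pAdj = 0.0518) and in a fit of those groups only (0.52, 0.087). Klf11, a TGF-beta-inducible repressor linked to the brown fat program, was at 29.2 and 30.2 CPM in vehicle and at 52.8 and 46.3 CPM in SR, with no overlap, and rose in all 3 responses by log2FC of 0.74 ± 0.17 (edgeR pAdj = 0.0164), 0.55 ± 0.13 on TC (edgeR pAdj = 0.00595) and 0.49 ± 0.13 on ETO (edgeR pAdj = 0.0159). For SR alone the Klf11 call was lost without SR replicate 1 (log2FC 0.64, edgeR pAdj = 0.125), vehicle replicate 2 (0.72, 0.104) or vehicle replicate 3 (0.76, 0.0927) and with those groups only (0.71, 0.26). On ETO it was lost without ETO replicate 2 (log2FC 0.47, edgeR pAdj = 0.061) or ETO+SR replicate 1 (0.40, 0.0584) and with those groups only (0.48, 0.137).

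Klf13, a repressor also known from T cells, had log2FC of 0.52 ± 0.17 on TC (edgeR pAdj = 0.0273), -0.038 ± 0.21 with SR alone (edgeR pAdj = 0.942) and 0.12 ± 0.17 on ETO (edgeR pAdj = 0.666). The first was lost without TC replicate 1 (log2FC 0.52, edgeR pAdj = 0.0674), TC replicate 3 (0.46, 0.096), TC+SR replicate 1 (0.46, 0.0847) or TC+SR replicate 3 (0.50, 0.0687). Its gene overlaps E030018B13Rik on the other strand, and the use of strand in the counting is not given in the sources used here, but that gene had 33 counts in all samples together against at least 683 counts for Klf13 in each. Klf3, a repressor that recruits CTBP, stayed between 51.6 and 69.7 CPM in all 16 samples, a 1.35-fold range against 10.4-fold for Klf4, and passed the test in none of the 8 comparisons (edgeR pAdj = 0.32 or more; in 0 of them at an unadjusted p under 0.05, and in 0 by DESeq2).

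Klf10, first described as a TGF-beta-inducible early gene (chromosome 15, 38221219 to 38230466, minus strand), had a pattern of its own. It was at 48.0 and 37.4 CPM in vehicle and at 70.3 and 64.5 CPM in SR. It was at 87.0, 111 and 93.4 CPM in TC and at 85.5, 80.9 and 65.2 CPM in TC+SR. It was at 37.3, 39.7 and 32.3 CPM in ETO and at 78.0, 62.0 and 64.4 CPM in ETO+SR. TC alone held the highest 3 values, the groups with SR overlapped below it, and vehicle and ETO overlapped at the bottom. On ETO, SR raised Klf10 by a log2FC of 0.90 ± 0.16 (edgeR pAdj = 0.00102), and with SR alone the log2FC was 0.66 ± 0.19 (edgeR pAdj = 0.0509; 0.0192 by DESeq2). On TC it was -0.33 ± 0.15 (edgeR pAdj = 0.107).

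TC by itself moved 4 members, raising Klf4 and Klf10 and lowering Klf13 and Klf15, where 11.7% of all genes were called against vehicle (4.77% higher and 6.94% lower). The median log2FC of the members was 0.046, beside 0.072 for all genes tested. Klf10 rose by a log2FC of 1.18 ± 0.18 (edgeR pAdj = 0.000653) and Klf4 by 1.04 ± 0.20 (edgeR pAdj = 0.00325), each with all TC samples above both vehicle samples. Klf13 was at 141 and 119 CPM in vehicle and at 73.4, 79.4 and 67.5 CPM in TC, a log2FC of -0.82 ± 0.19 (edgeR pAdj = 0.0102), and Klf15 had a log2FC of -1.43 ± 0.30 (edgeR pAdj = 0.00581), with all TC samples below vehicle. Klf5 (0.78 ± 0.28, edgeR pAdj = 0.0914) and Klf11 (0.45 ± 0.15, edgeR pAdj = 0.0748) had groups that did not overlap and missed the threshold. Without vehicle replicate 2 the count fell to 2, with log2FC of -0.70 for Klf13 (edgeR pAdj = 0.102) and -1.11 for Klf15 (0.084), and without vehicle replicate 3 it was 3, with 0.88 for Klf4 (0.0641). With the replicate number as a block, Klf5 and Klf11 were also called with TC alone (edgeR pAdj = 0.0106 and 0.038). The comparison of TC with vehicle shares the vehicle samples with SR against vehicle and the TC samples with TC+SR against TC.

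ETO by itself called 0 members by edgeR, where 0.0235% of all genes were called (3 genes). At an unadjusted p under 0.05, where 283 of all genes lay, there was 1 member, Klf11, at 43.8, 40.5 and 41.3 CPM in ETO, above both vehicle samples (log2FC 0.50 ± 0.15, edgeR pAdj = 1), and DESeq2 called 0. The log2FC of the 10 members ran from -0.36 for Klf15 to 0.50 for Klf11, with a median of -0.0078 beside 0.0081 for all genes. The vehicle samples are shared with the comparison of TC.

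**Figure D4:**
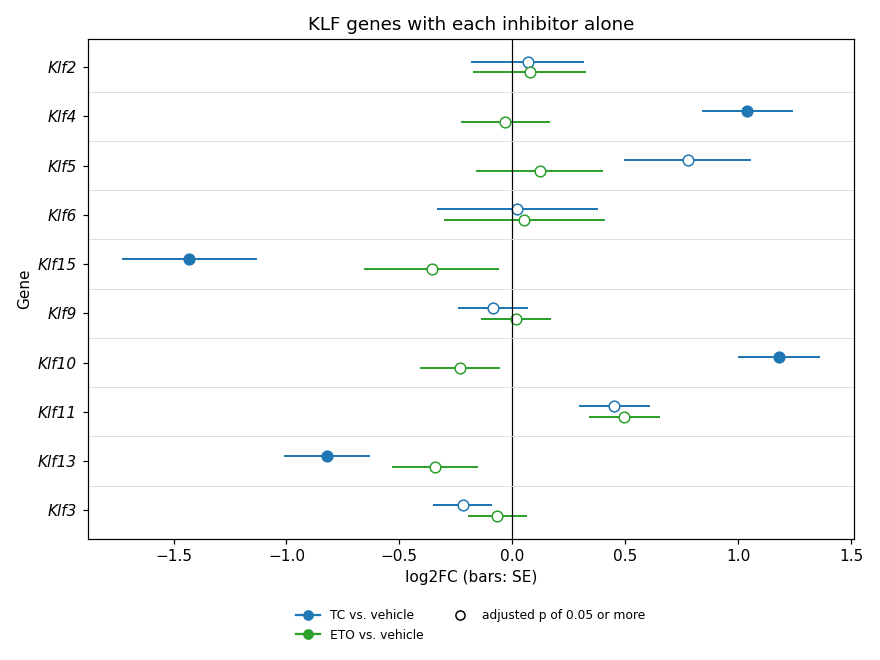
Log2FC (horizontal axis) of each KLF gene (vertical axis) for TC against vehicle and ETO against vehicle, which share the 2 vehicle samples, with bars for the SE and filled points where the adjusted p of edgeR was under 0.05. With TC, Klf4 (1.04) and Klf10 (1.18) are filled above 0 and Klf13 (-0.82) and Klf15 (-1.43) below it, and no point of ETO is filled.

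Whether an inhibitor changed the response to SR was tested as the difference between responses. Between TC and ETO, 1 member was called, Klf10, with a difference of -1.23 ± 0.22 in log2FC (95% confidence interval -1.70 to -0.77, edgeR pAdj = 0.00988), where 2.29% of all genes were called. That difference was called in all 18 other settings, with edgeR or DESeq2 adjusted p-values from 2.82e-05 to 0.0328. Between TC and no inhibitor, 0 members were called by edgeR, where 2.51% of all genes were called, and Klf10 lay just past the threshold with -0.99 ± 0.24 (edgeR pAdj = 0.0504). It was the 1 member at an unadjusted p under 0.05, where 2130 of all genes lay, and the 1 member that DESeq2 called (-0.95, adjusted p = 0.00878), and a filter of at least 10 counts in every sample also brought it under the threshold (-1, edgeR pAdj = 0.0481). Between ETO and no inhibitor, 0 members were called by edgeR, where 0% of all genes were called, and 0 members were under an unadjusted p of 0.05 (307 of all genes were) or called by DESeq2. For Klf4 this difference was 0.54 (95% confidence interval -0.039 to 1.12), and for Klf5 it was 0.30 (-0.51 to 1.11). The TC minus no inhibitor values were -0.046 for Klf4 (-0.62 to 0.53), 0.043 for Klf5 (-0.77 to 0.86) and -0.0097 for Klf2 (-0.75 to 0.73), and these intervals do not show that the responses were alike. With the replicate number as a block, Klf10 and Klf13 were called for TC minus no inhibitor, and Klf4 was added for TC minus ETO. The differences share samples with each other and with the single responses.

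**Figure D5:**
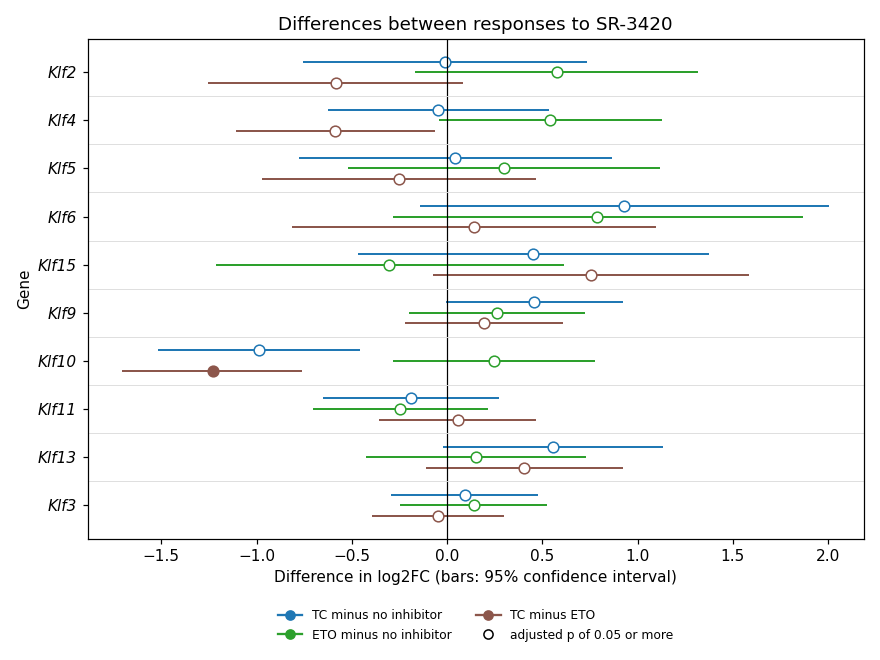
Difference in log2FC between responses to SR (horizontal axis) for each KLF gene (vertical axis), with bars for the 95% confidence interval and a filled point where the adjusted p of edgeR was under 0.05. The filled point is Klf10 for TC minus ETO, at -1.23.

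Markers of cell types, those of adipocytes among them, moved with SR as well. The summed CPM of the 6 adipocyte markers was 12300 and 10900 in SR, 16100, 17500 and 16700 in TC, 6330, 6350 and 6470 in TC+SR, 15500, 14000 and 14700 in ETO, and 8190, 5800 and 9640 in ETO+SR, so each group with SR lay below its counterpart. Of these markers, 5 of 6 fell with TC+SR against TC and 5 of 6 with ETO+SR against ETO, and 1 (Pparg) with SR alone. The 7 preadipocyte or fibroblast markers, with Col1a1 the most abundant at a mean of 1980 CPM, summed to 1890 and 1640 CPM in vehicle and 4060 and 2950 CPM in SR. They summed to between 2000 and 2630 CPM in TC and between 3070 and 4590 CPM in TC+SR, and to between 1100 and 2280 CPM in ETO and between 2340 and 4760 CPM in ETO+SR, again without overlap. Of them, 0 were called by edgeR with SR alone (3 at an unadjusted p under 0.05, 2 by DESeq2), 2 rose with SR on TC (Pdgfra and Thy1; 5 unadjusted, 5 by DESeq2) and 5 with SR on ETO (Pdgfra, Thy1, Col1a1, Col3a1 and Ly6a; 7 unadjusted, 7 by DESeq2). These marker counts stand beside 7.54%, 36.9% and 25.3% of all genes called in the 3 responses. The part of these shifts in the rise of Klf2, Klf4, Klf5 and Klf6 and in the values of Klf15 was not tested, and in such bulk samples fewer cells of a type and less RNA per cell cannot be told apart. The smooth or skeletal muscle list, mostly Acta2 (mean 777 CPM), summed to between 363 and 745 CPM without SR and between 676 and 1200 CPM with it, and its part was not tested either. Its genes did not move together, as Acta2 rose and Myh11 fell with SR on ETO. Among the brown adipocyte markers Cox8b fell in all 3 responses to SR and Elovl3 fell with SR on TC. The median log2FC of the 5 brown markers tested was 0.725 with SR alone, -0.43 on TC and 0.119 on ETO. With SR alone Elovl3 was at 16.2 and 14.4 CPM, against 10.6 and 7.84 CPM in vehicle (edgeR unadjusted p under 0.05, not called). On ETO, Ucp1 was higher with SR at an edgeR unadjusted p under 0.05 and was not called.

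The endothelial list, cells in which Klf2 and Klf4 are abundant, summed to 0.86 to 3.58 CPM over all 16 samples, with Kdr at a mean of 1.5 CPM as its most abundant gene and Pecam1 and Cdh5 at 0.204 and 0.199 CPM. Kdr, the 1 gene of the list that passed the filter, rose with SR on TC (log2FC 0.96 ± 0.31, edgeR pAdj = 0.0246) and on ETO (1.28 ± 0.30, edgeR pAdj = 0.00681), as Klf2 and Klf4 did, and its part in their rise was not tested. The leukocyte list summed to 16.3, 18.0 and 17.1 CPM in TC, where Klf10 was highest, and to between 3.97 and 10.1 CPM in the other groups. Most of it was Cd68, with a mean of 7.45 CPM, which rose with TC alone, fell with SR on TC and was called for TC minus no inhibitor and TC minus ETO, and its part in the values of Klf10 was not tested. Csf1r, the other gene of the list that passed the filter, did not follow it, at 1.18, 0.957 and 1.44 CPM in TC and 1.66, 1.26 and 2.16 CPM in TC+SR, which overlap, and was called in none of the 8 comparisons. Ptprc, Emr1 and Itgam had means of 0.281, 0.0624 and 0.141 CPM.

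The genes whose log2 CPM followed Klf4 most closely over the 16 samples, among 10717 genes, were Csrnp1 (Pearson r = 0.995), Myc (0.991) and Ppp1r15a (0.991), and the least alike was Nt5e (-0.99). For Klf5 they were Clcf1 (0.996), Plaur (0.994) and Myc (0.992), with Dnajc28 the least alike (-0.98). For Klf2 they were Zxdc (0.971), Egr1 (0.943) and Kdm6b (0.938), with Tmem41a the least alike (-0.95). Egr1, Myc and Csrnp1 are immediate early genes, and Ppp1r15a belongs to the integrated stress response. All of these values come from the same 16 libraries in 6 groups and describe them only.

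Of the other 16 genes of the KLF and SP family, 10 passed the filter on low counts. The counts of this and the following lists stand beside 7.54% of all genes called with SR alone, 36.9% with SR on TC, 25.3% with SR on ETO and 11.7% with TC alone. At an unadjusted p under 0.05 there were, of all 12786 genes, 2788 with SR alone, 5947 with SR on TC, 4758 with SR on ETO, 3103 with TC alone, 283 with ETO alone, 2130 for TC minus no inhibitor, 307 for ETO minus no inhibitor and 1596 for TC minus ETO. With TC+SR against TC, Klf7, Klf16, Sp1 and Sp2 rose and Klf1 fell, and with ETO+SR against ETO, Klf7 and Klf16 rose and Klf1 and Sp7 fell. Klf7, close to Klf6 in sequence, had a log2FC of 0.89 ± 0.16 (edgeR pAdj = 0.000751) and 0.57 ± 0.16 (edgeR pAdj = 0.0166), and Klf16, a SIN3A-recruiting member, 0.74 ± 0.17 (edgeR pAdj = 0.00434) and 0.72 ± 0.17 (edgeR pAdj = 0.00753). Klf1 and Sp7 were near the limit of detection, at no more than 2.73 and 0.789 CPM in any sample. Sp7 was highest in ETO replicates 2 and 3 (0.789 and 0.746 CPM). Its passing of the filter rested on this group, against which it then fell, so no result is drawn from that fall. With SR alone 0 of the 10 were called by edgeR, with 2 at an unadjusted p under 0.05 and 0 by DESeq2. With TC alone 0 were called, with 1 at an unadjusted p under 0.05 and 1 by DESeq2, and with ETO alone 0 by each of these. In the differences between responses 0 were called by edgeR or DESeq2, with 1, 0 and 1 at an unadjusted p under 0.05 for TC minus no inhibitor, ETO minus no inhibitor and TC minus ETO.

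All 11 cofactor genes of the list passed the filter, and the 4 called with SR on TC are close to the share of all genes called there (36.9%). With TC alone 4 of them fell, Kat2b (log2FC -1.53 ± 0.30, edgeR pAdj = 0.00387), Ctbp2 (-0.86 ± 0.22, 0.0204), Sin3a (-0.71 ± 0.11, 0.000835) and Ep300, and in TC+SR against TC 4 rose, Crebbp (0.77 ± 0.21, 0.0121), Ctbp2, Sin3a (0.65 ± 0.10, 0.000266) and Ep300. Sin3a, the corepressor scaffold of Klf9, Klf10, Klf11 and Klf13, was at 98.6 and 86.3 CPM in vehicle, at 61.3, 57.6 and 51.1 CPM in TC and at 90.7, 88.7 and 86.7 CPM in TC+SR, so TC alone lay below groups that overlapped. With SR alone 0 cofactors were called, with 1 at an unadjusted p under 0.05 and 0 by DESeq2, and with ETO+SR against ETO or ETO alone 0 were called, 0 at an unadjusted p under 0.05 and 0 by DESeq2. The difference in response was called for Sin3a between TC and no inhibitor (lost in 10 of 10 fits with a sample left out, edgeR pAdj up to 0.145) and between TC and ETO (lost in 10 of 12, edgeR pAdj up to 0.12), and for 0 cofactors between ETO and no inhibitor (0 unadjusted, 0 by DESeq2). Without vehicle replicate 3 the Kat2b call was lost (edgeR pAdj = 0.0629), the Ctbp2 call with TC alone was lost without TC replicate 1, TC replicate 3 or vehicle replicate 2 (edgeR pAdj = 0.0709, 0.0646 and 0.193), and the Crebbp call without TC+SR replicate 1 (edgeR pAdj = 0.0595).

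Of the 8 genes of the MEK5-ERK5-MEF2 route, known upstream of Klf2 and Klf4, 7 were tested, and the 3 called with SR on TC are close to the share of all genes (36.9%). With TC+SR against TC 3 rose, the transcription factor gene Mef2a (log2FC 1.09 ± 0.32, edgeR pAdj = 0.0178), the kinase genes Map2k5 (0.76 ± 0.21, 0.0134) and Map3k3 (0.51 ± 0.17, 0.0288), and with TC alone Map2k5 fell (-1.04 ± 0.23, 0.00966). With SR alone and with ETO+SR against ETO 0 were called by edgeR, with 1 at an unadjusted p under 0.05 in each and 0 and 1 by DESeq2. On ETO, Map3k3 was called in 2 of 12 other settings, among them without ETO+SR replicate 3 (log2FC 0.479, edgeR pAdj = 0.048). With ETO alone and in ETO minus no inhibitor 0 were called, 0 unadjusted and 0 by DESeq2, and in the other differences 0, with 1 unadjusted in each and 0 by DESeq2. The calls of Mef2a without TC replicate 2 or TC+SR replicate 3 (edgeR pAdj = 0.0675 and 0.0831), of Map3k3 without any TC sample or TC+SR replicate 1 (0.0612 to 0.0944) and of Map2k5 with TC alone without vehicle replicate 2 (0.107) were lost.

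The glucocorticoid receptor list, which holds known neighbours of Klf9 and Klf15 among hormone targets, had 7 genes tested. Dusp1, Sgk1 and Per1 rose in all 3 responses to SR and Zbtb16 with TC+SR against TC, and Zbtb16 fell with TC alone (log2FC -2.06 ± 0.22, edgeR pAdj = 5.01e-05). The phosphatase gene Dusp1 had log2FC of 2.09 ± 0.34, 2.28 ± 0.28 and 2.43 ± 0.28 for SR alone, on TC and on ETO (edgeR pAdj = 0.00229, 4.78e-05 and 6.24e-05), and the kinase gene Sgk1 1.35 ± 0.34, 1.86 ± 0.28 and 2.18 ± 0.28 (0.03, 0.000226 and 0.000165). The clock gene Per1 had 0.71 ± 0.18, 0.83 ± 0.15 and 1.02 ± 0.15 (edgeR pAdj = 0.0331, 0.000842 and 0.000366). These genes also respond to other signals, and the receptor gene Nr3c1, Fkbp5 and Tsc22d3 were called in none of the 8 comparisons. In the list 0 genes were called with ETO alone (0 unadjusted, 0 by DESeq2) and in the differences between responses (1 unadjusted, for TC minus ETO, and 0 by DESeq2). The Zbtb16 call on TC was lost without TC replicate 1 or TC+SR replicate 1 (edgeR pAdj = 0.0572 and 0.0902). The Dusp1 call for SR alone was kept in 9 of 10 other settings (edgeR or DESeq2 adjusted p up to 0.0602). For SR alone the Per1 call was lost without any 1 of its 4 samples (edgeR pAdj = 0.0683 to 0.22), and the Sgk1 call without SR replicate 3 or either vehicle sample (0.0969 to 0.182).

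In the TGF-beta list, tied to Klf10 and Klf11, the ligand gene Tgfb1 rose with SR alone (log2FC 0.74 ± 0.19, edgeR pAdj = 0.0311), and Tgfb1, Smad3, Smad4 and Smad7 rose with SR on TC and with SR on ETO, whereas Smad3 and Tgfbr2 fell with TC alone. The ligand genes Tgfb1 and Tgfb2 had 1.09 ± 0.16 and 1.09 ± 0.35 on TC (edgeR pAdj = 0.000146 and 0.0261), and the inhibitor gene Smad7 0.88 ± 0.11 on ETO (edgeR pAdj = 0.000145). The Tgfb1 call for SR alone was lost without any 1 of its 4 samples (edgeR pAdj = 0.0778 to 0.215) and the Tgfb2 call without TC replicate 1, TC replicate 2 or TC+SR replicate 3 (0.0564, 0.101 and 0.113). With ETO alone 0 of the list were called, 0 unadjusted and 0 by DESeq2, and 0 were called by edgeR for TC minus no inhibitor (2 unadjusted, 2 by DESeq2) and for ETO minus no inhibitor (1 unadjusted, 0 by DESeq2).

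Among the 12 adipocyte genes on which KLF factors are known to act, Egr2, the zinc finger partner of Klf4 in early adipogenesis, rose in all 3 responses, by log2FC of 2.34 ± 0.19, 2.28 ± 0.16 and 2.83 ± 0.16 (edgeR pAdj = 1.72e-05, 9.04e-07 and 3.16e-07). The Klf15 targets Bcat2 and Prodh, of branched-chain amino acid and proline breakdown, fell with TC+SR against TC by log2FC of -1.40 ± 0.27 and -1.70 ± 0.38 (edgeR pAdj = 0.00123 and 0.00325) and with ETO+SR against ETO by -1.12 ± 0.27 and -1.16 ± 0.37 (edgeR pAdj = 0.00754 and 0.0354). Neither was called by edgeR with SR alone, or with TC alone, where Klf15 itself was called lower. Slc2a4, also named above as a Klf15 target, was at 165 and 117 CPM in vehicle and at 87.7, 106 and 95.5 CPM in TC. That fall had an edgeR unadjusted p under 0.05 and was called by DESeq2, not by edgeR. With SR, Slc2a4 was called lower by edgeR on TC and on ETO, and not with SR alone. Mean Bcat2 was 324.8 CPM in TC and 337.8 CPM in vehicle, and mean Prodh was 49.18 and 39.4 CPM. Pparg, the master regulator of fat cell differentiation, was at 309 and 349 CPM in vehicle and at 114, 117 and 122 CPM in TC, the lower group by far, with a log2FC of -1.48 ± 0.19 (edgeR pAdj = 0.000182). It fell with SR alone (-0.82 ± 0.21, edgeR pAdj = 0.0327) and on ETO (-0.79 ± 0.17, 0.0046), and its log2FC was 0.013 ± 0.17 on TC (0.959). In all, 1 gene rose and 1 fell with SR alone, 1 rose and 5 fell with TC+SR against TC, 2 rose and 5 fell with ETO+SR against ETO, and 1 rose and 2 fell with TC alone. With ETO alone 0 were called (1 unadjusted, 0 by DESeq2), and in the differences between responses 0 by edgeR, with 4, 1 and 3 unadjusted and 0, 0 and 2 by DESeq2 for TC minus no inhibitor, ETO minus no inhibitor and TC minus ETO. The Pparg call for SR alone was lost without any 1 of its 4 samples (edgeR pAdj = 0.0683 to 0.242), and the Prodh call on ETO without ETO replicate 1 or 2 or ETO+SR replicate 2 or 3 (0.0851 to 0.144). The Pparg call on ETO was kept in 11 of 12 other settings (edgeR or DESeq2 adjusted p up to 0.0673). The difference in the Pparg response between TC and ETO was called in 3 of 18 other settings. Among them was the fit without ETO+SR replicate 3 (log2FC 1.06, edgeR pAdj = 0.0137). Pparg is also in the adipocyte marker list.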

How the data were processed

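RNA was measured by RNA-seq in the 16 samples. The authors aligned reads to mm9 (STAR 2.4.2a), used HOMER to drop repeats of a read at the same place and length, which limits the counts of short abundant genes, and deposited whole-number counts per gene made with iRNA-seq, without normalization. Positions are those of the table on mm9, written from base 1.

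From these counts, edgeR 4.0.16 in R 4.3.3 gave log2 fold changes and quasi-likelihood tests after TMM normalization, after filterByExpr, which left 12786 genes, from a single model of the 6 groups over all samples. SE was the log2FC over the square root of the test statistic. Samples were grouped by their labels. The code was tested on simulated counts. Alternatives were relative log expression size factors, DESeq2 1.42.0, other filters (no filter, or 10 counts or more in all samples), the compared groups only, the replicate number as a block, and leaving out each sample. Replicate pairs differed by 4.37 to 156 times sampling noise (chi-square per degree of freedom, 14 pairs), and none was identical.

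The members and lists were chosen with earlier results of these data known. Named were all members, the other KLF and SP genes, up to 4 called genes per list with the largest log2FC in size in a response to SR or TC against vehicle, and, for the 3 members with the smallest F-test p, the 3 most and the 1 least correlated genes with a mean count of at least 50 (log2 CPM, prior count 2). Genes outside this rule (Ep300, Smad3, Smad4, Tgfbr2, Nr3c1, Fkbp5, Tsc22d3, Slc2a4 and the markers) were named after their values were seen. Promoter sequences are from RefSeq (GRCm38.p6). Drawing used Python 3.11.15 and matplotlib 3.10.9.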

Additional observations from a re-analysis of the deposited data

Results flagged for a closer look

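The response of Klf10 to SR differed between the inhibitors. For TC+SR against TC the log2FC of Klf10 was -0.33 ± 0.15 and for ETO+SR against ETO it was 0.90 ± 0.16, and the test of the difference itself gave -1.23 (edgeR pAdj = 0.00988), with TC samples that started higher (87.0 to 111 CPM) than ETO samples (32.3 to 39.7 CPM). The groups with SR lay at 65.2 to 85.5 CPM with TC and 62.0 to 78.0 CPM with ETO, which overlap.

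The response of Sin3a also differed. It was larger with TC than without inhibitor by 0.667 in log2FC (edgeR pAdj = 0.0423) and larger with TC than with ETO by 0.613 (edgeR pAdj = 0.0388). These differences were called in 4 of 16 and 6 of 18 other settings, with edgeR or DESeq2 adjusted p from 4.09e-05 to 0.145 and from 2.82e-05 to 0.12, and with a sample left out the first was lost in 10 of 10 fits and the second in 10 of 12.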

How the results depend on the processing

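The members' log2FC in the 8 comparisons changed side of the threshold in 36 of 1060 refits, 16 of them with a sample left out (all losses) and 20 in other settings (15 gains and 5 losses), and no called value changed sign. Counts of called members by edgeR or DESeq2 were within 1.5 times the reported ones except where given here. For SR against vehicle, 4 members became 1 (Klf4) when only those groups were fitted, which leaves 4 samples for the spread. For TC minus no inhibitor, 0 became 1 (Klf10) with DESeq2 and 1 with at least 10 counts in every sample. Leaving out each sample gave 2 to 4 members for SR against vehicle, 6 to 7 for TC+SR against TC, 6 to 8 for ETO+SR against ETO, 2 to 4 for TC and 0 to 0 for ETO against vehicle, 0 to 0 for TC and for ETO minus no inhibitor, 1 to 1 for TC minus ETO and 8 to 9 for any difference; a group left with 1 sample was assumed to vary like the others.

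All-gene counts moved by over 1.5 times with DESeq2 for SR against vehicle (1604 against 964), ETO against vehicle (17 against 3), TC minus no inhibitor (832 against 321), TC minus ETO (682 against 293) and ETO minus no inhibitor (9 against 0). With only the compared groups they were 46 for SR, 0 for ETO and 1205 for ETO+SR against ETO (3234), and without a filter 163 for TC minus no inhibitor. With a sample left out they were 306 to 504 for SR, 702 to 1089 for TC and 0 to 3 for ETO against vehicle, 1989 to 3198 for ETO+SR against ETO, 53 to 179 for TC minus no inhibitor and 145 to 262 for TC minus ETO. The cause was not tested.

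Samples share only a number between groups. Same-numbered samples deviated together from their group means in 27 of 35 pairs (correlation over 0.1, mean 0.41, lowest -0.286), against a mean of -0.203 over 71 other pairs, and 11 of 16 samples correlated best with their own number, a hint from the data and not the design. With the replicate number as a block, members called were 7 for SR against vehicle (adding Klf6 at an edgeR adjusted p of 0.0122, Klf10 at 0.00749 and Klf15 at 0.00678), 2 for TC minus no inhibitor (Klf10 and Klf13) and 2 for TC minus ETO (adding Klf4), and in all genes 2438, 1669 and 1055. Members called were 9 for TC+SR against TC (adding falls of Klf10 at 0.0245 and Klf15 at 0.0163), 6 for TC against vehicle (adding Klf5 at 0.0106 and Klf11 at 0.038), 8 for ETO+SR against ETO, 0 for ETO against vehicle, 0 for ETO minus no inhibitor and 9 for any difference, and the other counts of all genes were 3072 for TC and 6 for ETO against vehicle, 7185 for TC+SR against TC, 5776 for ETO+SR against ETO, 3 for ETO minus no inhibitor and 9724 for any difference. Depth limits Klf5 most, with as few as 60 counts.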
